A study of Mus musculus with 24 samples.

Results

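Cytosolic ribosomal protein genes encode the proteins of the ribosomes that work outside mitochondria. The members were all gene names on the array that start with Rpl or Rps and a digit, or that read Rplp0, Rplp1, Rplp2 or Rpsa, without the Rps6 kinases and Rps27l. This rule took 70 genes with 104 probes out of 28902 gene names, and 63 of the 70 passed a filter on detection, which 14216 genes passed in all. The rule used names only, no measured value. The 70 comprised 32 proteins of the large subunit, 28 of the small subunit, the 3 proteins of the stalk that recruits translation factors, 6 paralogs of core proteins, and Rps19bp1, which binds Rps19 and is not part of the ribosome.

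RNA came from mouse epidermis (B6-129Sv mixed strain) peeled off the dermis after trypsin, with 1 Illumina BeadChip array per sample and 24 arrays in all. Mutants were Mad2f/f; K14Cre+, so that Cre from the promoter of keratin 14, a gene of basal keratinocytes, removed Mad2 (gene Mad2l1), a core protein of the spindle assembly checkpoint. Controls at postnatal days 3, 6, 13 and 20 (P3, P6, P13, P20) were Cre-negative, so they did not control for Cre itself. There were 2 mutants and 4 controls at P3, 2 and 2 at P6, 2 and 2 at P13, and 2 and 3 at P20. The adult set held 1 Mad2f/f; K14Cre+ mutant, 2 Mad2f/f; p53f/+; K14Cre+ mutants with a floxed Trp53 allele in addition, and 1 control, which was Mad2f/+; K14-Cre+ and so carried Cre and 1 floxed Mad2 allele. From P6 on, every mutant is recorded as nude. One P3 array labelled with a mutant genotype and a control type entered no comparison.

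A ribosomal protein is made in strict proportion to its partners, and a surplus is degraded. In mammals the mRNAs of these genes begin with a cytosine and a run of pyrimidines, the 5′ terminal oligopyrimidine (TOP) tract, through which the growth kinase mTOR controls their translation. In skin, growth of basal keratinocytes and hair follicle matrix calls for much ribosome synthesis, and free ribosomal proteins such as Rpl5 and Rpl11 can restrain Mdm2 and so raise p53. Rpl5, Rpl10, Rpl11 and Rps27 were not analysed here.

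The promoters show what the members share in sequence. RefSeq's table (GRCm38.p6) held windows for 54 of the 70. The letters CTTTC, a core of the TOP tract, were found on the gene's strand within 20 bases of the annotated start in 14 of the 54 (25.9%), against 6.44% of the 27025 genes of the whole table and 4.35% of 69 mitochondrial ribosomal protein genes. The longer CTCTTTC, which contains CTTTC, was found there in 5 of the 54 (9.26%) and in 0.662% of all genes. CCGGAAG, the letters bound by ETS-type factors, lay on either strand of the 300-base promoter in 23 of the 54 (42.6%) against 9.93% of all genes, and in 37.7% of the mitochondrial ribosomal protein genes. The E-box CACGTG, searched the same way, was in 11.1% of the members and 8.09% of all genes. A match of letters is a description and shows no binding site. The windows below run from 30 bases before to 20 bases after the annotated start, 5′ to 3′, for 5 genes that changed at P13 and for Rpl22, which changed at P6 and P20. Capitals mark CTTTC on the gene's strand or CCGGAAG on either strand.
Rpl7a (chr2:26910777-26910826, plus strand): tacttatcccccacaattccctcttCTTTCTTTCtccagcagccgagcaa
Rpl24 (chr16:55966245-55966294, plus strand): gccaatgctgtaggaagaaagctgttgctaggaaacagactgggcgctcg
Rps7 (chr12:28635934-28635983, minus strand): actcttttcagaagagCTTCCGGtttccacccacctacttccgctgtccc
Rpl31 (chr1:39367821-39367870, plus strand): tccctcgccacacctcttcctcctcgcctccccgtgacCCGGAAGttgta
Rplp2 (chr7:141447621-141447670, plus strand): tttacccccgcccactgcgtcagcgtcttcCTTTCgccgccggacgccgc
Rpl22 (chr4:152325696-152325745, plus strand): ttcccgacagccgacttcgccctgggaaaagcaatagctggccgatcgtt
The capitals show CTTTC in Rpl7a, where 2 copies overlap, and in Rplp2. They show the ETS-type letters in Rps7, where they lie on the opposite strand, and in Rpl31. The windows of Rpl24 and Rpl22 held neither. The 5 genes shown from P13 did not share these letters at the start. The 10 genes that changed at P13 lie on separate chromosomes except for Rpl7a and Rpl12, both on chromosome 2, and Rpl27 and Rps27a, both on chromosome 11.

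The ribosomal protein genes were among the brightest on the array. Intensity is the light of a bead-bound probe, given here as log2 after background correction and quantile normalization, which gives every array the same distribution. Of the 63 genes, 32 lay at or above the 99th percentile of all gene means, 46 at or above the 95th, and 5 below the middle. Detection (detection p under 0.01) held in all 23 arrays that carry a detection p for 58 of the 63. The brightest was Rplp1, a stalk protein, at 15.31 to 15.68, and 15.68 was also the highest value the normalization gave to any gene. Differences of genes so near the top of the range may be compressed, and this was not tested. Among the genes at or above the 99th percentile the median SD over the 24 arrays was 0.32 for ribosomal protein genes and 0.37 for all genes, and the other ribosomal protein genes had a median SD of 0.56. These genes took 6.28% to 7.89% of the summed signal of an array. The other 7 members did not pass the filter: Rpl14, Rpl17, Rpl39l, Rpl6, Rps20, Rps23 and Rpsa were detected in at most 1 array, so their probes give no level, although most of these genes are core ribosomal proteins. Many members have processed pseudogenes with near-identical sequence, and cross-hybridization was not tested.

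Signal quality differed between chips. Per array, background was exceeded by 21.2 to 182 intensity units at the 75th percentile, and 23.3% to 40.1% of probes were detected. The lowest signals over background came from 1 mutant and 2 controls of P20 on 1 chip (called G), where background had been subtracted before deposit, as on the chip of adult mutant 1 (H). Krt14, the keratin that defines basal keratinocytes, lay at 14.87 to 15.58 in every array, near the top of the range. The keratin gene Krt5 ran from 11.63 to 15.07, and the mean of the basal keratinocyte list from 9.01 to 12.55. Fibroblast, vascular and hair markers varied between arrays as given below. Mad2l1 was lower in the mutants at each age (limma adjusted p from 3.87e-05 at P13 to 0.00629 at P3). After scaling in place of quantile normalization it was not past the threshold at P3 and P20. Over all alternative settings it kept its sign. It was past the threshold in 17 of 21 settings at P3, 16 of 17 at P6 and 17 of 17 at P13. At P20 this held in 13 of 19 and in adults in 14 of 16. Nothing in the labels says that samples came from separate animals, so the p-values measure the spread between these samples, which may be technical. One estimate of it per gene served all groups. Each difference below is mutant minus control in log2 units, followed by its standard error (SE). The verbs rose and fell are kept for genes with an adjusted p under 0.05.

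**Figure D1:**
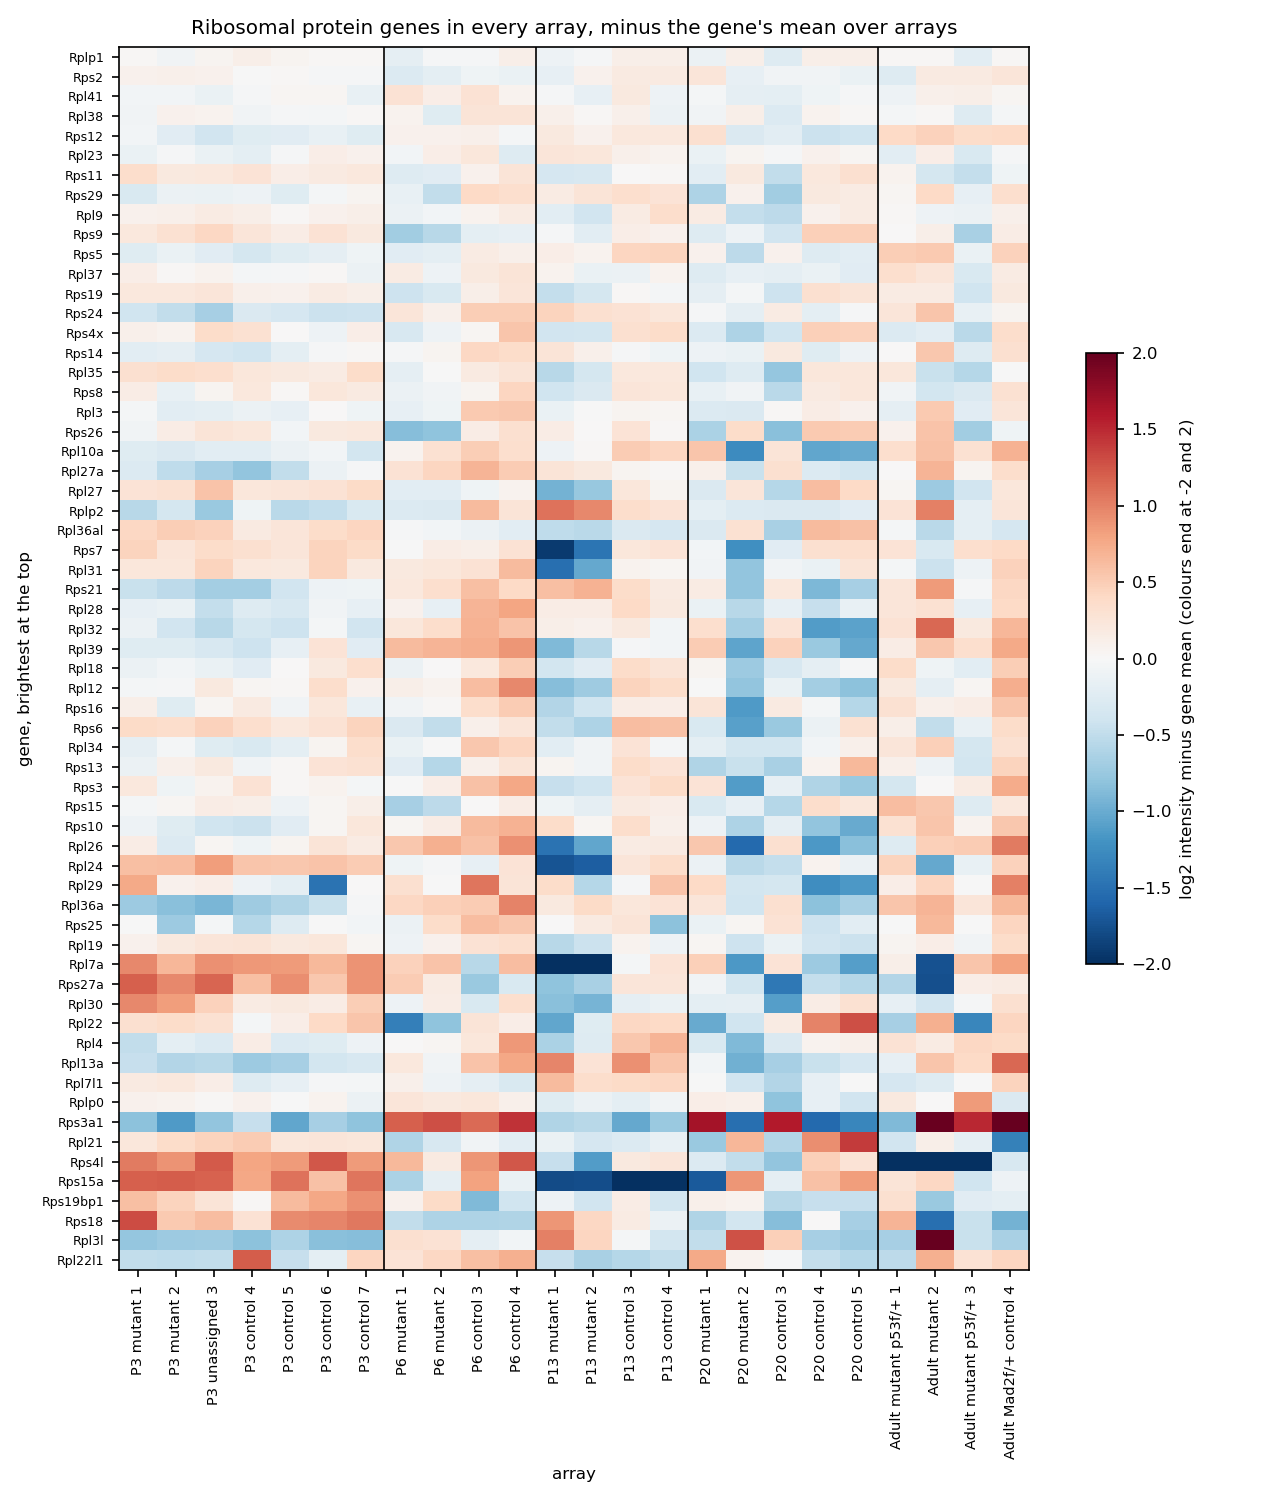
Log2 intensity of ribosomal protein genes that passed the filter, all but 1 of them (rows, brightest at the top), in each of the 24 arrays (columns), minus the gene's mean over arrays, with lines between ages. The brightest rows vary little. Rpl24, Rps7, Rpl31 and Rpl7a are low in both P13 mutants, and Rps3a1 is high or low by chip in mutants and controls alike.

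At P3, before any phenotype is recorded, no ribosomal protein gene passed the threshold, while 10 of 13 hair shaft and root sheath markers fell, with a list mean of 9.78 and 9.57 in mutants against 12.66 to 13.35 in controls. The count was 0 of 63 where 1.94% of all genes were called (1.67% lower, 0.274% higher), with limma on log2 intensity. At an unadjusted p under 0.05 there was 1 of 63, beside 1119 of all 14216 genes. It was Rpl30, a large-subunit protein at 0.65 ± 0.30 (SE, adjusted p = 0.629), named after its value was seen. The median difference of the 63 was -0.02, against 0.03 for all genes, and 36 of the 63 lay below 0. The count was 0 in each of the 21 alternative settings. The core pair of small-subunit proteins Rps6, the main substrate of the S6 kinases, and Rps19, the gene most often mutated in Diamond-Blackfan anaemia in humans, differed by 0.06 and 0.09.

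At P6, the first age recorded as nude, 4 genes fell and 1 rose. This is 5 of 63, where 23% of all genes were called (13.4% lower, 9.57% higher). Rpl22, a large-subunit protein that ribosomes can lose without stopping, was 9.30 and 9.87 in the mutants and 10.92 and 10.80 in the controls. Both mutants lay below both controls, by 1.27 ± 0.38 (SE, adjusted p = 0.0210), or 2.42-fold. Rpl28, also of the large subunit, was 13.84 and 13.59 in mutants against 14.44 and 14.55 in controls, a difference of -0.78 ± 0.23 (SE, adjusted p = 0.0195). Its second, much dimmer probe gave -0.03 (adjusted p = 0.961 over probes), and the 2 probes correlated at -0.07 over the arrays, so the probes disagree. Rpl3, which lies near the peptidyl transferase centre, was 14.18 and 14.26 against 14.87 and 14.88, a difference of -0.65 ± 0.18 (SE, adjusted p = 0.0165). The stalk protein Rplp2 was 13.83 and 13.81 against 14.72 and 14.35, a difference of -0.72 ± 0.23 (SE, adjusted p = 0.0299). In Rpl28, Rpl3 and Rplp2 the arrays of the 2 groups did not overlap, which was true of 74.4% of all genes at P6. Rps19bp1, the binding partner of Rps19, was 6.93 and 7.23 in mutants against 5.97 and 6.44 in controls, 0.87 ± 0.30 higher (SE, adjusted p = 0.0465). It kept its sign in 17 alternative settings and was past the threshold in 7 of them. Rps19 itself differed by -0.53 (adjusted p = 0.147).

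The direction of the whole family at P6 depended on the normalization. The median difference was -0.32 with 51 of 63 genes below 0 after quantile normalization, and 0.27 after each array was scaled to its 75th percentile, while the median of all genes was -0.04 and -0.02. With scaling Rpl3 turned to 0.08, Rpl28 and Rplp2 came to -0.07 and -0.06, and 1 ribosomal protein gene was called. Leaving out any 1 of the 4 arrays left 0 or 1 call, 0 without P6 control 3. Beside this, all 20 of the fibroblast markers tested fell at P6, with a list mean of 5.47 and 5.45 in mutants against 10.19 and 10.54 in controls, 12 of 14 endothelial and blood markers fell, and 10 of 13 hair markers fell. The fibroblast mean all but separates the genotypes at P6, so a fit with it as a covariate, in which 0.718% of all genes and 0 ribosomal protein genes were called, cannot tell list and genotype apart. Rpl22 at P6 ran from -3.27 to -0.99 over 17 alternative settings and was past the threshold in 12. In bulk RNA fewer cells of a type and less RNA per cell cannot be told apart.

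At P13, 9 ribosomal protein genes fell and 1 rose, more than at any other age in this fit. The count of 10 of 63 compares with 20.5% of all genes called (10.5% lower, 10% higher), and the share of members was 15.9%. The count rose with other ways of fitting, and so did the background: 19 with the chip as a fixed block (31.6% of all genes), 22 with only the P13 arrays (34.5%) and 25 with array weights (39.1%). At an unadjusted p under 0.05 the count was 19 of 63, beside 4534 of all 14216 genes. The falls differed in size. Rpl24, a large-subunit protein that bridges both subunits and whose mutation gives the Belly spot and tail mouse, was 10.95 and 11.03 in the mutants and 12.92 and 13.04 in the controls. The mutants lay 1.99 ± 0.25 lower (SE, adjusted p = 3.87e-05), or 3.98-fold. Rps7, a small-subunit protein, was 11.9995 and 12.45 in mutants against 14.14 and 14.18 in controls, a difference of -1.93 ± 0.31 (SE, adjusted p = 0.000322), or 3.82-fold. Rpl7a, a large-subunit protein, was 8.45 and 8.89 against 10.95 and 11.28, a difference of -2.44 ± 0.49 (SE, adjusted p = 0.00203), or 5.44-fold. The gap between the groups was wider than the spread within either group for each of these genes. With 2 arrays a side, the groups did not overlap for 72.7% of all genes at P13. The share of all genes with so wide a gap was not counted. Rpl31, which lies at the exit of the peptide tunnel, was 12.34 and 12.82 in mutants against 13.91 and 13.88 in controls, a difference of -1.31 ± 0.26 (SE, adjusted p = 0.00162). The 2 dimmer Rpl31 probes gave -0.88 (adjusted p = 0.0297 over probes) and -0.66 (adjusted p = 0.103). Rpl24, Rps7, Rpl31 and Rpl7a were called in all 17 alternative settings, with scaling values of -1.60, -1.47, -0.86 and -2.21.

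**Figure D2:**
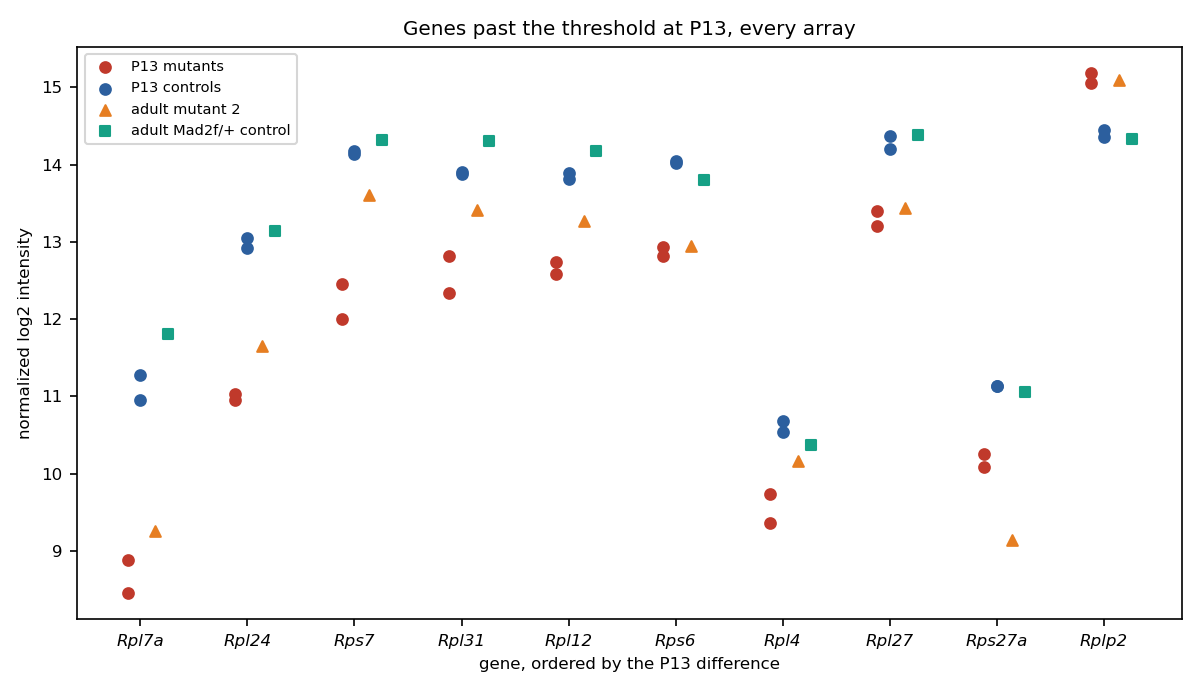
Normalized log2 intensity in every P13 array (red, mutants; blue, controls) of the 10 ribosomal protein genes past the threshold at P13, with adult mutant 2 (orange) and the adult Mad2f/+ control (green) beside them. Both P13 mutants lie below both controls for 9 genes and above them for Rplp2. The arrays of the 2 groups did not overlap for 72.7% of all genes at P13. Adult mutant 2 lies on the same side of its control for each of the 10, and so does adult mutant 1 (not drawn), by -0.0079 for Rpl24 and 0.03 for Rplp2, while adult mutant 3 (not drawn) lies on the other side for Rpl4 and Rplp2.

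Smaller falls at P13 were those of Rpl12 and Rpl4 of the large subunit, Rps6, Rpl27, and Rps27a, which is made as a fusion to ubiquitin. Rpl12 differed by -1.19 and Rps6 by -1.16 (adjusted p = 0.00542 and 0.0115), with Rps6 at 12.94 and 12.81 in mutants and 14.04 and 14.02 in controls. Rpl4 differed by -1.06, Rpl27 by -0.98 and Rps27a by -0.97, with adjusted p of 0.0108 to 0.0430 for these 3. After scaling, Rpl12, Rps6, Rpl27 and Rps27a kept their sign and were no longer past the threshold (adjusted p = 0.0660 to 0.199). The stalk protein Rplp2 went the other way. It was 15.19 and 15.06 in mutants and 14.45 and 14.36 in controls, 0.72 ± 0.23 higher (SE, adjusted p = 0.0336), and scaling gave 1.44. Its stalk partners Rplp0 and Rplp1 differed by -0.05 and -0.18 and were not called. Rplp2 thus fell at P6, where scaling left -0.06, and rose at P13.

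Leaving out 1 array at P13 left 4 calls without mutant 1, 5 without control 4, 6 without control 3 and 7 without mutant 2. Over the whole family the median at P13 was -0.22 with 48 of 63 below 0, against -0.01 for all genes. With scaling it was 0.12, while the median of all genes moved to 0.18. Large-subunit proteins had a median of -0.51 (29 genes, 6 fell) and small-subunit proteins -0.22 (25 genes, 3 fell). The 32 genes at or above the 99th percentile of brightness had a median of -0.19 and the 31 dimmer ones -0.32. All 13 hair shaft and root sheath markers fell at P13, with a list mean of 5.81 and 6.46 in mutants and 13.92 and 13.995 in controls. Fibroblast marker means were 9.07 and 9.13 in mutants against 9.31 and 9.72 in controls, with 3 of 20 markers higher and 2 lower. Of 14 endothelial and blood markers, 5 rose and 1 fell at P13 (42.9%, against 20.5% of all genes). The part of these cell types in the falls was not tested beyond the fibroblast covariate, with which 18 ribosomal protein genes and 22.8% of all genes were called. All 4 P13 arrays shared 1 chip.

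**Figure D3:**
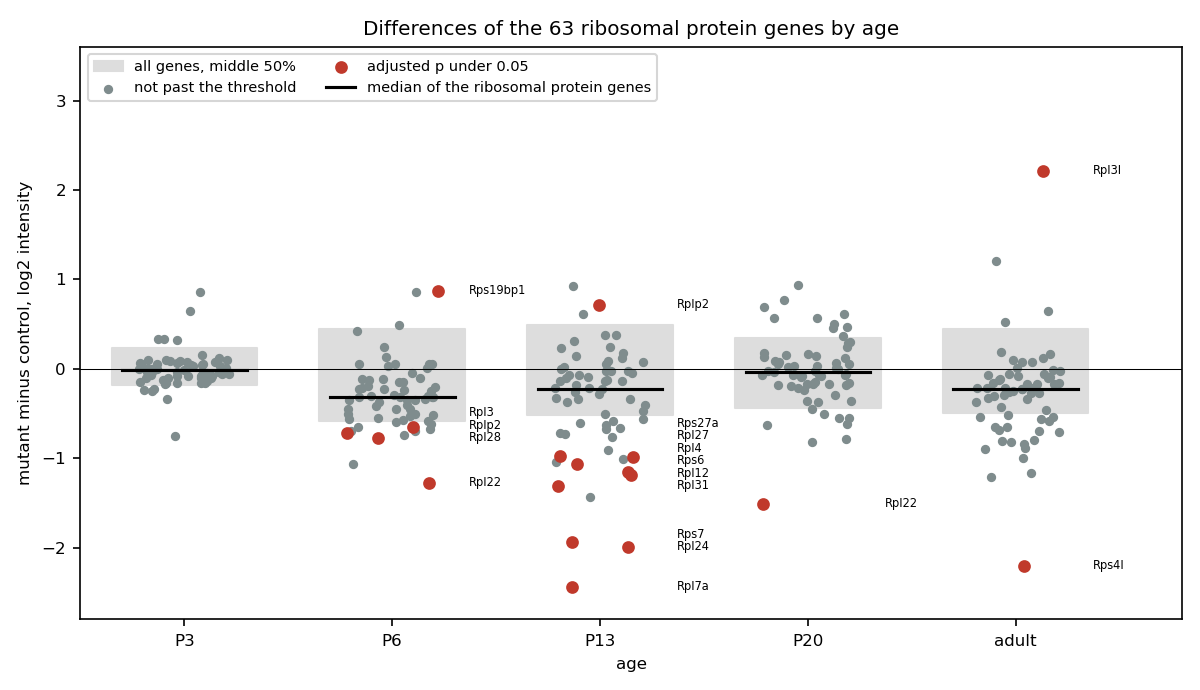
Mutant minus control (log2) of each of the 63 ribosomal protein genes at each age. Red points passed the threshold, grey points did not, black lines are the family's median and grey boxes span the middle 50% of all genes. The P13 column reaches lowest, at -2.44 for Rpl7a, and no point is red at P3.

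At P20, 1 gene fell and none rose, 1 of 63 where 10.2% of all genes were called (5.74% lower, 4.45% higher). This was Rpl22, at 9.67 and 10.28 in mutants and 10.84, 11.66 and 11.96 in controls. At P20 the arrays of the 2 groups did not overlap for 24.3% of all genes. For Rpl22 both mutants lay below all 3 controls, by 1.51 ± 0.34 (SE, adjusted p = 0.00937), or 2.86-fold. The difference was -1.17 between the single arrays of each side on chip F and -1.54 on chip G. It was not past the threshold with only the P20 arrays (adjusted p = 0.312), with array weights (adjusted p = 0.0610), without mutant 1 (adjusted p = 0.0785) or without chips G and H (adjusted p = 0.0920). The P20 median of the family was -0.03, or 0.20 with scaling, and -0.04 for all genes in both. Within chip F it was 0.17 and within chip G -0.23, so the 2 chips gave opposite signs. Without P20 control 3, the array with the most fibroblast signal at this age (list mean 7.38, against 5.33 to 6.00 in the other 4), 10 members were called. The share of all genes called in that fit is not given here, and the part of fibroblast signal was not tested.

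Rpl22 was the gene with falls at more than 1 age. It was 9.63 and 10.43 in P13 mutants against 11.08 and 11.08 in controls, a difference of -1.05 (adjusted p = 0.0595, not called). At P3 the mutants were 10.99 and 11.04 and the controls 10.63 to 11.22, so the groups overlapped. In adults the 2 mutants with the Trp53 allele were 10.01 and 9.36, below the control at 11.09, and the mutant without it was 11.38. The difference between ages was not past the threshold for Rpl22 (F = 4.504, adjusted p = 0.0756). Its paralog Rpl22l1, whose mRNA Rpl22 holds down in mouse cells, was dim (4.58 to 6.44) and detected in 7 of 23 arrays. It differed by -0.32 at P6, -0.02 at P13 and 0.77 at P20 (adjusted p = 0.246 at P20), and none of these was called.

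In adults 1 gene fell and 1 rose, 2 of 63 where 11.9% of all genes were called (6.69% lower, 5.21% higher). A single control array stood against 3 mutants, so the spread of adult controls is taken from the other groups. Rps4l, a paralog of Rps4x, was 7.33 in the control and 5.01, 5.45 and 4.88 in the mutants. It was not above background in the 2 mutants with a detection p, so the fall was at least 3.02-fold (difference -2.21 ± 0.41, SE, adjusted p = 0.00150). Rps4x itself differed by -0.69 (adjusted p = 0.224). With only the adult arrays the adjusted p of Rps4l was 0.106. Rps4l also varied with age in controls, from 8.42 to 8.88 at P3 to 6.85 to 8.11 at P20.

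Rpl3l, a paralog of Rpl3 known from heart and skeletal muscle, was 11.12 in adult mutant 2 and 4.65 and 4.87 in the other 2 mutants, against 4.67 in the control. The groups overlapped, and the mean difference of 2.21 ± 0.52 (SE, adjusted p = 0.00925) rested on that array. Without it the difference was 0.09 (adjusted p = 0.944), and with only the adult arrays the adjusted p was 0.109. In the same array all 11 muscle markers tested were detected, with a list mean of 12.29 against 5.75 to 6.59 in the other adult arrays, and muscle creatine kinase Ckm was at 11.85 against 4.51 to 4.63. Whether muscle tissue in that sample gave the Rpl3l signal was not tested. Rpl3 in that array was 14.87, against 14.13 to 14.60 in the others.

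**Figure D4:**
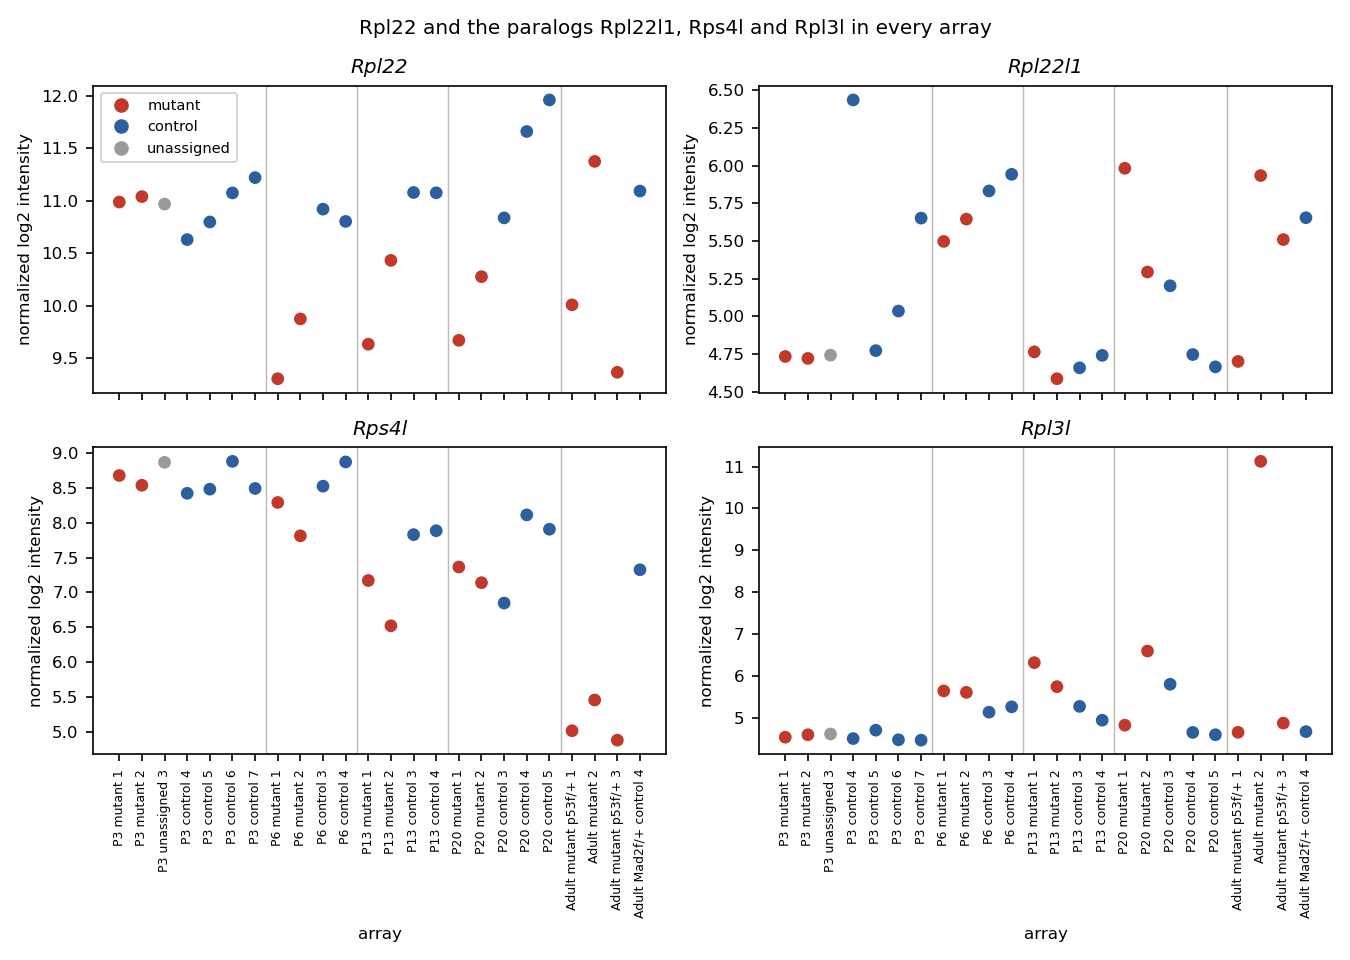
Normalized log2 intensity of Rpl22, Rpl22l1, Rps4l and Rpl3l in each array (mutants red, controls blue, the array of conflicting labels grey), with lines between ages. Rpl22 is low in mutants from P6 to P20, Rps4l is lowest in the 3 adult mutants, and Rpl3l stands out in adult mutant 2 at 11.12.

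The adult median of the family was -0.23 with 52 of 63 below 0, against -0.01 for all genes, and turned to 0.25 with scaling. Beside it, 18 of 20 fibroblast markers, 10 of 14 endothelial and blood markers and 13 of 13 hair markers fell in adults. The fibroblast mean was 5.46, 10.02 and 5.22 in adult mutants 1, 2 and 3 and 10.83 in the control, and the hair mean was 4.90, 7.13 and 4.87 against 13.52. At P20 2 fibroblast markers, 1 endothelial and blood marker and 1 hair marker fell. Their part in the differences was not tested. At P6, P13, P20 and in adults the sign of the family's median was opposite under the 2 normalizations. The authors' deposited log2 values, which cover P3 to P20 for these genes, gave -0.32 at P6, -0.27 at P13 and -0.04 at P20.

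**Figure D5:**
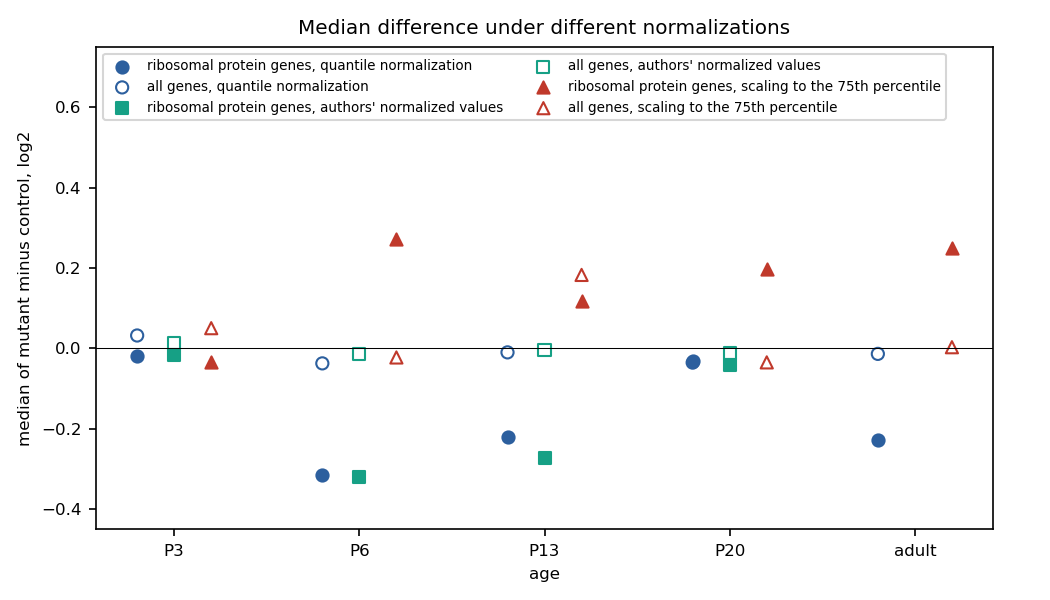
Median of mutant minus control (log2) over the ribosomal protein genes (filled) and over all genes (open) at each age, with quantile normalization (circles), the authors' deposited values (squares, not given for adults) and scaling to the 75th percentile (triangles). The filled triangles lie above 0 from P6 on and the filled circles below it.

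The mutant effect differed among P3, P6, P13 and P20 for 5 of 63 members, where this held for 19.4% of all genes (moderated F test, limma, adjusted p under 0.05). These were Rpl24 (F = 15.42, adjusted p = 0.00140), Rps7 (adjusted p = 0.0121), Rpl7a (0.0172), Rplp2 (0.0257) and Rps27a (0.0295). For Rpl24 the P13 effect was lower than that at P3 by 2.06 ± 0.33 (SE, adjusted p = 0.00171), and lower than that at P6 by 1.89 ± 0.36 (adjusted p = 0.00267). The P20 effect on Rpl24 lay 1.84 ± 0.34 above that at P13 (adjusted p = 0.00364). The fall at P13 was thus larger than at the ages on either side. For Rpl7a the same 3 differences were past the threshold (adjusted p = 0.0126 to 0.0297). For Rplp2 the P13 effect exceeded that at P6 by 1.43 ± 0.32 (adjusted p = 0.00868). The counts that follow are given without the share of all genes called in the same fits. Without P13 mutant 1, or without P13 control 4, 1 member was called in each case, and 11 members were called without P20 mutant 2 and 10 without P20 control 3.

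Single mutant arrays of other ages were set against the P13 difference, over the members and over all genes. Across the 63 genes, adult mutant 2 minus its control correlated with the P13 difference at r = 0.64 (Spearman 0.74), and the 2 adult mutants with the Trp53 allele at 0.27 and 0.26. Over all 14216 genes the 3 values were 0.70, 0.54 and 0.59, and all 3 share the adult control. In adult mutant 2 Rpl7a was 9.25, Rpl24 11.65 and Rps27a 9.14, each below the adult control, and Rplp2 was 15.10. Of the genes that fell at P13, all but Rps27a were higher in adult mutant 2 than in both P13 mutants. Rps7 was 13.61 against 11.9995 and 12.45, and Rpl31 was 13.41 against 12.34 and 12.82. P20 mutant 2 minus the controls of its chip gave r = 0.59 (0.42 over all genes). P20 mutant 1 minus the control of its chip gave -0.24 (0.35 over all genes). The P6 mutants gave -0.03 and -0.05 over the members and 0.47 and 0.43 over all genes. The P3 mutants gave -0.05 and -0.05 over the members and 0.36 and 0.46 over all genes. These are descriptions over genes measured on the same arrays, and genes are not independent replicates. Fibroblast markers averaged 10.02 in adult mutant 2 and 10.83 in its control, and 5.60 in P20 mutant 2 against 6.00 and 5.66 in the controls of its chip, and their part was not tested. P20 mutant 2 had the lowest signal above background of all arrays.

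In control epidermis 22 of 63 ribosomal protein genes differed among ages, where 45.2% of all genes did (moderated F test, adjusted p under 0.05). The 6 with the smallest adjusted p were Rps27a, Rpl13a, Rps15a, Rps19bp1, Rpl12 and Rpl28. Rps27a averaged 11.64 at P3, 10.37 at P6, 11.14 at P13 and 10.07 at P20. Rpl13a, a large-subunit protein also known from the interferon-driven GAIT complex in human cells, averaged 9.30, 10.49, 10.55 and 9.33. Rpl12 averaged 13.57, 14.23, 13.85 and 12.90, and Rpl28 13.55, 14.49, 14.05 and 13.49. Both had their highest mean at P6. Rps15a, a small-subunit protein, averaged 7.96 at P3 and was not above background in any P13 array of either genotype. Rps19bp1 averaged 7.43 at P3 and 6.20 at P6. No chip held controls of every age, and age and chip cannot be told apart. Counts with arrays left out follow, without the share of all genes called in the same fits. The count was 43 without chips G and H, 34 without P20 control 3, and 14 without P6 control 4 or without P13 control 4.

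Beside Rpl3l and Rps4l, Rps3a1 and Rpl7a were among the genes whose group means varied most. Rps3a1 of the small subunit was 10.68 in P20 mutant 1 and 10.61 in P20 control 3 on chip F, but 7.52 in mutant 2 and 7.47 and 7.72 in the controls on chip G. Both genotypes moved together, and the gap between the chips was larger than the gap between mutants and controls within either chip at P20. Rpl13a, a common reference gene, ran from 8.85 to 10.97 over the 24 arrays, and Rplp0, another, from 8.91 to 10.58. Rpl38, which in mice is needed for axial patterning, Rps29, Rpl39, Rps19 and Rplp1 were not called in any mutant-control comparison by their brightest probe. Dimmer probes passed the threshold over probes where the brightest did not for Rps12 (-0.87) and Rps13 (-1.20) at P6, for Rpl21 (-1.10) and Rpl23 (-1.18) at P13, and for Rpl38 (1.56, adjusted p = 0.00518) at P20.

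The genes that build and use ribosomes were read from lists written with earlier results known. Of 43 tested genes of rRNA synthesis and ribosome assembly, 3 rose and 2 fell at P6 and 2 rose and 2 fell at P13, which is 11.6% and 9.3% where 23% and 20.5% of all genes were called. Eif6, which keeps the large subunit from joining early, rose at P6 (1.32 ± 0.24), P13 (1.18 ± 0.24) and in adults (1.01 ± 0.28, SE each). Nucleolin (Ncl) and nucleophosmin (Npm1) fell at P6, by 1.30 and 1.16. The large-subunit assembly factors Pes1 and Nip7 fell at P13, by 2.20 and 1.54. Of 18 translation factors and other TOP mRNAs, 4 fell and none rose at P13: Eef2, the elongation factor that moves the ribosome, by 1.81, Nap1l1 by 1.59, Eef1b2 by 1.27 and Eif3l by 1.06. This is 22.2%, near the 20.5% of all genes. Their median at P13 was -0.49. At P6 only Eif4a2 fell of these 18. Of 20 growth regulators of translation, 1 rose and 1 fell at P6 and at P13, 2 rose and 2 fell at P20 (20%, against 10.2% of all genes), and 1 rose in adults. Sesn2, which restrains mTORC1, was the one that rose at P6 (1.48 ± 0.27) and in adults (0.99 ± 0.31), and Ddit4, another brake on mTORC1, rose at P13 (1.70 ± 0.38, SE each). Sesn1, a paralog of Sesn2 and also a brake on mTORC1, fell at P20 (-2.25 ± 0.32, SE, adjusted p = 0.000302). Mxd4, an antagonist of Myc, fell at P6 and P20 (-0.94 and -1.23), and Rheb, which activates mTORC1, fell at P13 (-1.16). Eif4ebp1, which holds back cap-dependent translation, and the S6 kinase gene Rps6kb2 rose at P20 by 1.33 and 1.14.

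Mitochondrial ribosomal protein genes gave similar counts. Of 68 tested, 4 fell and 1 rose at P6, 7 fell and 2 rose at P13, 1 fell and 1 rose at P20, and none passed the threshold in adults or at P3. The shares were 7.35% at P6 and 13.2% at P13, against 23% and 20.5% of all genes. The largest fall at P13 was that of Mrpl3 (-1.62 ± 0.23, SE, adjusted p = 0.000126), followed by Mrpl53 (-1.33). Their median was 0.02 at P6 and -0.23 at P13, against -0.32 and -0.22 for the cytosolic genes. None of 73 mitochondrial genes is a member of the cytosolic set, and the difference between the 2 sets was not tested.

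Other cell and state lists were counted in the same arrays, and their part in the results above was not tested. The shares of all genes called were 1.94% at P3, 23% at P6, 20.5% at P13, 10.2% at P20 and 11.9% in adults. Some list shares lay below these, as for lymphocyte (12.5%) and basal genes (10%) at P6. At P13 they were 18.8% for proliferation genes and 20% for p53 genes. The p53 genes had 10% at P20 and in adults. Of 9 suprabasal keratinocyte genes 4 rose at P6, 6 at P13, 2 at P20 and 4 in adults, and of 10 basal keratinocyte genes 1 fell, at P6. All 10 basal genes lay below 0 at P6 (median -1.47), 9 at P20 (median -1.13) and 7 in adults (median -0.17). All 10 lay above 0 at P3 (median 0.38), and 7 at P13 (median 0.58). Of 16 proliferation genes 8 fell at P6, 3 at P13 and 3 in adults. Of 10 myeloid genes 1 rose at P3, 4 at P6, 6 at P13, 1 at P20 and 1 in adults, where 1 fell. Of 8 lymphocyte genes 1 fell at P6 and 3 at P20, and 2 rose in adults. Of 10 genes of p53 and ribosomal stress 2 rose at P3, 4 at P6 and 1 at each later age, and 1 fell at P13. Among them Ccng1, a direct target of p53, rose at P3 by 1.64 ± 0.28 (SE, adjusted p = 0.00265), at an age when no ribosomal protein gene was called.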

How the data were processed

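Per the labels' protocols, biotinylated cRNA was hybridized to Illumina BeadChips. The scanner file, as deposited, gives a mean bead intensity per probe and array, not normalized. All arrays except that of adult mutant 3 also have a detection column, per the file headers. From their values, these were 10 deposited columns of detection p-values and 13 deposited columns of the fraction 1 minus that p. One per-sample column, of bead numbers, was not used. A second deposited table gives the authors' normalized log2 values; the submitters' processing notes name limma.

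Intensities were corrected by the normal-exponential model (background from detection p, offset 16), quantile-normalized and log2-transformed (limma 3.58.1 in R 4.3.3). One array lacks a detection p, and its background came from other arrays of its chip. The filter on detection asked for p under 0.01 in 2 or more arrays (20431 probes), and each gene took its brightest probe (14216 genes). A linear model with 1 mean per group (12 residual, 4.09 prior degrees of freedom) was fitted to 24 arrays, with Benjamini-Hochberg adjustment over the 14216 genes. Of the 70 members, 68 matched a RefSeq symbol directly and 2 a synonym. The script was tested on simulated data.

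The members, lists and tests were chosen with earlier results of these data known. Named were a fixed panel of members, Mad2l1, up to 8 rises and 8 falls per contrast, the 6 smallest adjusted p of each F test, the 5 largest SDs of group means, and up to 4 genes per list; 1 member that this rule names is counted but not reported here. Lists of basal and suprabasal keratinocyte, lymphocyte, myeloid, proliferation and p53 genes were also read.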

Additional observations from a re-analysis of the deposited data

Results flagged for a closer look

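In the group of 4 P3 controls, 1 sample stood apart from the other 3 for 8 of the 63 ribosomal protein genes, by Dixon's ratio of the gap to the range. Chance flags about 1 in 20 groups, and these genes share the same 4 arrays. The low sample was control 6 for Rpl29 (10.90 against 12.19 to 12.39, ratio 0.865), control 4 for Rps18 (6.69 against 7.35 to 7.46, ratio 0.859) and control 5 for Rps26 (14.20 against 14.45 to 14.48, ratio 0.909). The high sample was control 4 for Rpl21 (8.48, ratio 0.942), control 7 for Rpl30 (11.25, ratio 0.890), control 6 for Rpl31 (14.30, ratio 0.956), control 5 for Rpl3l (4.70, below background, ratio 0.842) and control 6 for Rps4l (8.88, ratio 0.849).

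The mutant effect differed among the 4 ages by a moderated F test for Rpl24 (F = 15.4), Rps7 (F = 8.66), Rpl7a (F = 7.75), Rplp2 (F = 6.79) and Rps27a (F = 6.48). Each of these rests on 2 mutants at each age.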

How the results depend on the processing

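With 1 to 4 arrays per group, and 1 adult control, many differences could not be detected. In data simulated for the P13 comparison, 10% of changes of 1 log2 unit and 69% of changes of 2 were past the threshold. A gene that was not called may thus still differ by 1 log2 unit. Low signal on 1 chip also limits what can be said of dim probes. The number of ribosomal protein genes called depended on the setting at P6 (5), P13 (10), P20 (1), in adults (2), for the effect among ages (5) and for control ages (22), and the cause was not tested. In the main fit the shares of all genes called were, in that order, 23%, 20.5%, 10.2%, 11.9%, 19.4% and 45.2%. These shares moved with the setting too, as given above for P13. Counts without such a share beside them, here and above, are therefore not results about these genes alone. With scaling to the 75th percentile P6 gave 1, and Rpl3 at P6 turned to 0.0759. The authors' values gave 10 at P6, 3 at P20 and 9 for the effect among ages. The chip as a fixed block gave 10, 19, 2 and 8 at P6, P13, P20 and in adults and 11 among ages, and control ages could not be estimated with it. As a random block it gave 8, 18 and 3 at P6, P13 and P20, 10 among ages and 9 for control ages. Chips that hold both sides gave 10, 19, 2 and 8. Only the compared groups gave 14, 22, 0 and 0, where fewer arrays estimate the spread. Array weights gave 23, 25, 0 and 5, 15 among ages and 45 for control ages. The fibroblast covariate, nearly the genotype at P6, gave 0 there, 18 at P13, 6 at P20 and 9 for control ages. P20 gave 2 with no filter on detection and 2 with the mean of a gene's probes, adults gave 1 with detection in at least 12 arrays, and the conflicting array as a mutant gave 8 among ages. Without chips G and H, a setting chosen after seeing the data, the counts were 3 at P20, 11 in adults, 23 among ages and 43 for control ages. Leaving out each array in turn gave 0 to 1 at P6, 4 to 7 at P13, 1 to 10 at P20, 2 to 3 in adults, 1 to 11 among ages and 14 to 34 for control ages. Sample numbers are shared between control groups. Deviations of the controls numbered 3 correlated at 0.21, -0.03 and -0.11 between P6, P13 and P20. With 2 controls at P6 and 2 at P13, these values cannot show whether the numbers pair samples. Control ages with the replicate block gave 3.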

Other observations

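The P3 array with a mutant genotype and a control type had a median log2 intensity of 13.46 over the ribosomal protein genes and gave them 7.61% of its signal. Its Rpl24 was 13.52, Rps7 14.29, Rpl7a 11.91 and Rpl22 10.97. The other 6 P3 arrays ran from 13.19 to 13.30 for Rpl24, from 14.15 to 14.36 for Rps7, from 11.64 to 11.96 for Rpl7a and from 10.63 to 11.22 for Rpl22.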
